A study of Mus musculus with 25 samples.

Results

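The undifferentiated spermatogonia cluster comprised 201 of 4528 testis cells, the cells that the authors' deposited cluster label assigns to undifferentiated spermatogonia. The cells came from 3 single-cell RNA-seq libraries of postnatal day 10 mice, 1 wild type (WT) and 2 Ythdc2 knockout (KO), and are labelled as 4N cells, which have replicated their DNA and can be mitotic or in meiotic prophase; the extraction protocol names FACS-purified germ cells. All 3 sample titles carry the word embryo beside P10, and the age label P10 was followed. No treatment was given. Per the labels, the knockout line was described elsewhere, and B6D2F1, the hybrid of C57BL/6 and DBA/2, is stated for the other Ythdc2 mutant lines of the series, so the background of the KO and WT animals and the nature of the KO allele are not given in the sources used here. Cells of the KO group carry 2 library numbers, here KO A and KO B, and which KO sample each number stands for is not given. Nothing says that these libraries came from different animals, so p-values rest on spread between libraries, which may be technical. That spread was largely or wholly pooled over genes, so a gene's own spread between libraries counts little or not at all.

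Undifferentiated spermatogonia are the mitotic cells at the base of the seminiferous tubule and include the spermatogonial stem cells. Stem cells respond to GDNF, secreted by Sertoli cells, through the receptor tyrosine kinase RET and its co-receptor GFRA1, and the transcription factors ZBTB16, SALL4 and ETV5 maintain the pool. Progenitors switch on Sox3, Neurog3 and Rarg, and retinoic acid then drives them to become Kit-positive differentiating spermatogonia. YTHDC2 is an RNA helicase that acts with MEIOC and RBM46, and with the exonuclease XRN1, to turn down the mitotic programme when germ cells enter meiosis.

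Total UMIs (unique molecular identifiers, counted molecules) were 16352670 in the WT library, 18102156 in that of KO A and 25460154 in that of KO B, and all triplets of values below keep this order. No cell barcode was shared between libraries (0). The cluster took 3.91% of the WT library (45 of 1151 cells, exact binomial 95% interval 2.87 to 5.20), against 4.34% (66 of 1522, interval 3.37 to 5.48) and 4.85% (90 of 1855, interval 3.92 to 5.93) in KO. The 3 intervals overlapped. Selection of 4N cells sets which cells were seen, and these shares describe that selection. Intervals here and for levels cover counting error only.

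The cluster was not made up of germ cells alone. UMIs were summed in each cell over 5 genes of smooth muscle and stroma, Acta2, Myh11, Myl9, Sparc and Col1a2, and 35 of the 201 cells held 10 or more. These gated cells made up 22.2% of the cluster in the WT library (10 cells, exact interval 11.2 to 37.1), 15.2% in that of KO A (10 cells, 7.51 to 26.1) and 16.7% in that of KO B (15 cells, 9.64 to 26.0), and the intervals overlapped. Their sums ran from 10 to 562 UMIs with a median of 286, and only 1 of the 35 held under 50. The other 166 cells held at most 3 such UMIs, and 140 of them held 0. The plot of the 201 cells shows the gap between both sets. Outside the cluster, 2 cells passed the gate.

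**Figure D1:**
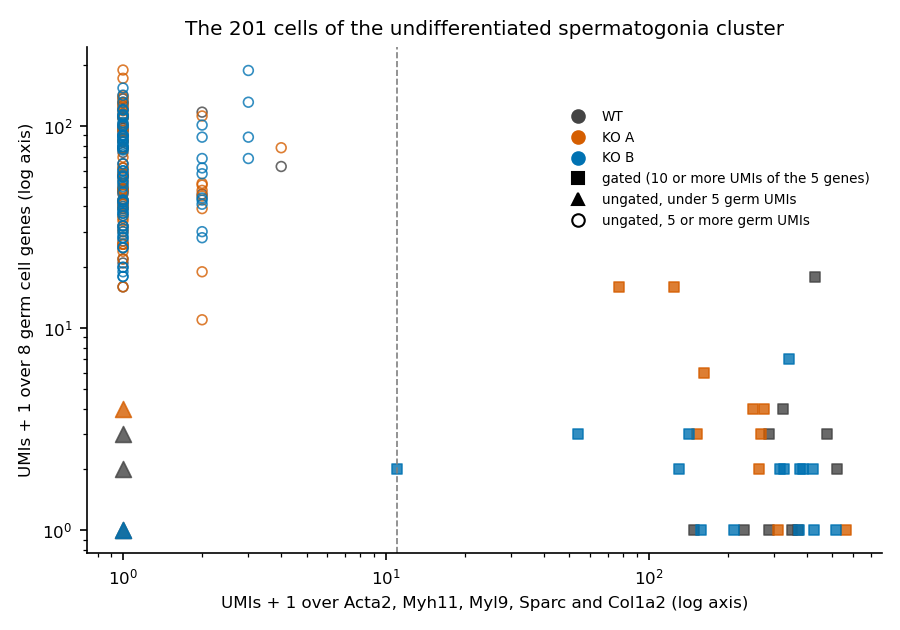
Each point is 1 cell of the cluster: the x axis gives UMIs + 1 over the 5 smooth muscle and stromal genes and the y axis UMIs + 1 over 8 germ cell genes, both on log axes, with colour for the library and shape for the class. The 35 gated cells (squares) lie at 10 UMIs or more with at most 17 germ UMIs, the 161 open circles hold 10 to 188 germ UMIs, and the 5 triangles hold 0 to 3.

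The gated cells carried the transcripts of contractile and matrix-producing cells and less germ cell RNA than the ungated cells. Levels are in UMIs per 1e6 UMIs of the pooled cells (CPM). Acta2, smooth muscle actin, stood at 12076, 7600 and 8490 CPM, with 0 UMIs in the ungated cells of every library. Sparc, a matrix-binding glycoprotein, stood at 4890, 4219 and 4686 CPM. These 2 genes belong to the gate, so their levels only describe it.

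Genes outside the gate also differed between gated and ungated cells, which is a description without a test. Genes at 50 CPM or more in the gated cells of every library were ranked by the lowest of the 3 library folds. The 12 leading genes were Sparc, Acta2, Igfbp7, Nr2f2, Bgn, Tpm2, Myl9, Myh11, Tshz2, Eln, Mfap4 and Col4a4, of which 8 were not gate genes. Eln, which encodes elastin, was at 1562, 1638 and 1826 CPM, and Nr2f2, a nuclear receptor of mesenchymal cells, at 836, 981 and 816 CPM. Tcf21, a transcription factor of testicular stroma, was at 1315, 1011 and 887 CPM in the gated cells and at 0 UMIs in the ungated cells of all 3 libraries. Gate genes left out, 2916 genes were at 50 CPM or more in the gated cells of every library. Of these, 549 were at least 4-fold higher in gated than ungated cells in every library. Genes entered this count by their level in the gated cells, and genes lower there were not counted. The count therefore describes the gated cells and does not support the gate.

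Germ cell genes were lower in the gated cells, but not all were near 0. Ddx4, the germ cell RNA helicase, was at 0, 22.6 and 4.74 CPM, against 309, 308 and 273 CPM in the ungated cells. Dazl, a germ cell RNA-binding protein, was at 65.4, 128 and 19.0 CPM (9, 17 and 4 UMIs), against 1032, 1178 and 1094 CPM, and Tex15, of germ cell transposon silencing, at 79.9, 151 and 23.7 CPM against 359, 440.0 and 357 CPM. Ret and Sall4 had 0 UMIs in the gated cells of every library. Of the 35 gated cells, 32 held under 10 UMIs over the 8 general germ cell genes, 3 held 10 or more, and 0 were called doublets. Of the markers of other somatic types, Star, the cholesterol carrier of Leydig cells, and Sox9, the Sertoli cell factor, were at 0, 0 and 4.74 CPM. Among the Sertoli cell genes Aard was nevertheless at 305, 196 and 531 CPM and Clu at 7.27, 15.1 and 237 CPM. Gata4 was at 58.1, 83.0 and 71.1 CPM and Kitl at 58.1, 75.5 and 99.6 CPM. Wt1 was at 0, 0 and 37.9 CPM, Cldn11 at 0, 0 and 42.7 CPM and Rhox5 at 0, 0 and 4.74 CPM. Inha was at 7.27, 0 and 23.7 CPM. Of the endothelial genes, Esam was at 0, 60.4 and 33.2 CPM and Egfl7 at 14.5, 0 and 28.5 CPM. Tie1 was at 0, 0 and 28.5 CPM and Pecam1 at 0, 0 and 9.49 CPM. The gated cells were left out of what follows.

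Within the 166 ungated cells, 5 cells held under 5 germ cell UMIs, with 0 to 3, while the next held 10. The WT library had 3 of them and each KO library 1. They held 0 Acta2 UMIs, and their leading genes against the other 161 cells were Tmsb4x, Ctla2a, Vim, Emp3, Id2, Srgn, Lcp1, Fcer1g, S100a6 and Crip1, of which Srgn, Lcp1 and Fcer1g are known from leukocytes. The KO B cell stood apart from the other 4: it held 0% of the ungated KO B UMIs of Emp3, Id2, Fcer1g and S100a6, but 81.8% of those of Cd79a and 90.3% of those of Ebf1, both known from B cells and without a UMI in the other 4. The 5 cells made up 99.7%, 98.4% and 87.8% of the Tmsb4x UMIs of the ungated cells. For the MHC class I gene H2-K1 they made up 92.7%, 64.7% and 21.7%. Because 3 of the 35 ungated WT cells held under 5 germ UMIs and 1 each of 56 and 75 in the KO libraries, counts of calls between KO and WT are given with and without them, and levels of single genes are those of the 161 cells unless stated otherwise. This cut was chosen after the values had been seen, and no cell type name is given to the 5 cells.

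Pooled over the remaining cells, the given markers followed the label. All 5 given markers were at least 2-fold higher than in the other clusters together in all 3 libraries. In the 161 cells Ret (chromosome 6, 118151748 to 118197744, GRCm38) stood at 66.1, 132 and 111 CPM, against 0.260, 0.120 and 0.128 CPM in the other clusters. Zbtb16, a zinc finger repressor that keeps the stem cell pool, was at 187, 209 and 244 CPM, and Sall4, its zinc finger partner, at 100.4, 125 and 117 CPM. Etv5, an ETS factor downstream of GDNF, was at 43.2, 53.7 and 42.7 CPM. Ccnd2, cyclin D2 of the G1 phase, was at 155, 281 and 269 CPM. The lowest fold of the 5 over the other clusters was that of Zbtb16, at 12.4, 10.2 and 10.6. The clusters were built on expression of the same cells, so all comparisons of the cluster with the rest are descriptions without a test.

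**Figure D2:**
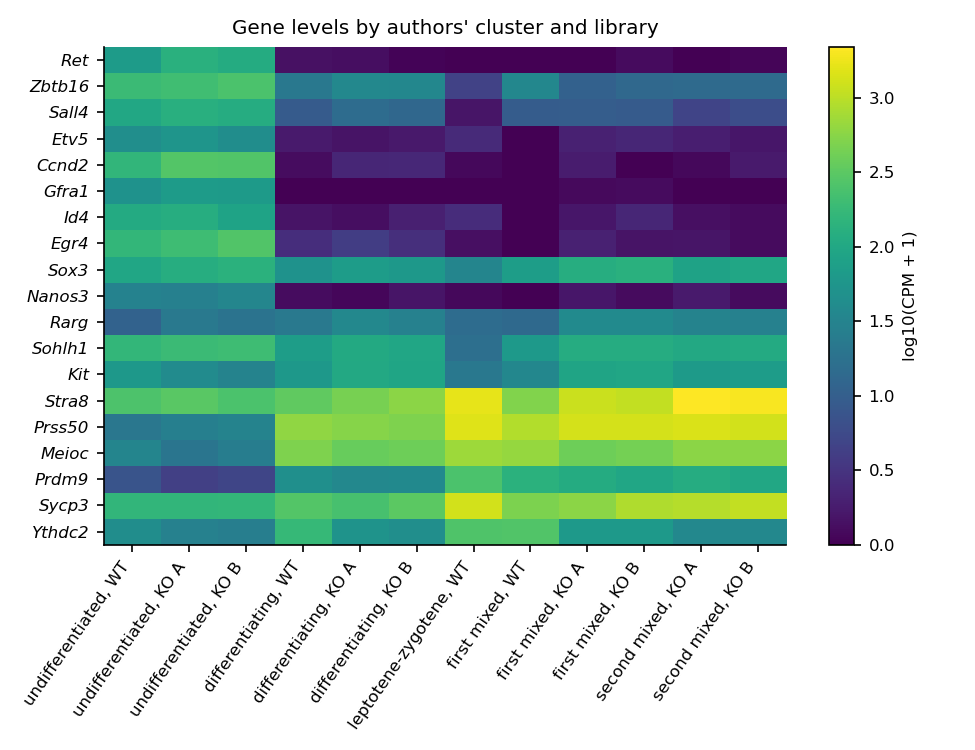
Colour gives log10(CPM + 1) for 19 genes (rows) in each authors' cluster of each library (columns), gated cells and the 5 cells left out. The 5 given markers, Gfra1, Id4, Egr4 and Nanos3 are brightest in the first 3 columns, whereas Prss50, Meioc and Prdm9 are darker there than in the differentiating columns.

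Cells of the cluster were deeply sequenced. The median ungated cell held 24784, 18282 and 20049 UMIs, against 14305.5, 9669 and 11798 in the differentiating cluster. Median mitochondrial share was 5.52%, 10.5% and 7.46%, so both KO libraries were above WT.

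Genes at 50 CPM or more in the ungated cells of every library were ranked by the lowest of the 3 library folds. Tcl1, a co-activator of AKT, led those that set the ungated cells apart, at 99.0, 112 and 98.9 CPM. In the other clusters Tcl1 had 0, 4 and 4 UMIs in all, and its fold was at least 468 in each library, where the WT fold was taken against a floor of 3 UMIs. Foxf1, a forkhead factor, followed with 99.0, 94.2 and 114 CPM, and Rragd, a GTPase that signals amino acids to mTORC1, with 84.3, 116 and 127 CPM. In all 3 genes every library of the cluster was far above every library of the rest.

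The remaining leading genes include several with known roles. Ret and Ccnd2 were given markers. Id4, an inhibitor of helix-loop-helix factors that marks stem cells, was at 105, 119 and 85.2 CPM, and Egr4, a GDNF-responsive zinc finger factor, at 155, 199 and 266 CPM. Nab2, a corepressor of EGR factors, was at 56.2, 81.2 and 86.9 CPM. Sfrp1 and Sfrp2, secreted WNT antagonists, stood at 81.9, 59.3 and 57.4 CPM and at 79.5, 82.8 and 83.0 CPM. Trim71, a LIN41 family RNA-binding protein of germ and embryonic stem cells, was at 225, 199 and 257 CPM.

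The 5 cells did not carry this ranking. Nefm, Smoc2, Asphd2, Large2, Peli2, Afp, Ddah1, Sdc4 and Gpsm3 complete the 20 genes, and without the 5 cells Fst, which encodes follistatin, took the place of Gpsm3. Sdc4, the cell-surface proteoglycan syndecan 4, was the most abundant of the 20, at 608, 412 and 578 CPM. Of 3501 genes at 50 CPM or more in the ungated cells, 107 were at least 4-fold higher than in the rest in every library. Of 3908 genes at 50 CPM or more in the rest, 88 were at least 4-fold lower in every library. With the gated cells kept, 162 of 3572 were higher and 67 of 3908 lower. Genes under 50 CPM in any library were not counted.

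**Figure D3:**
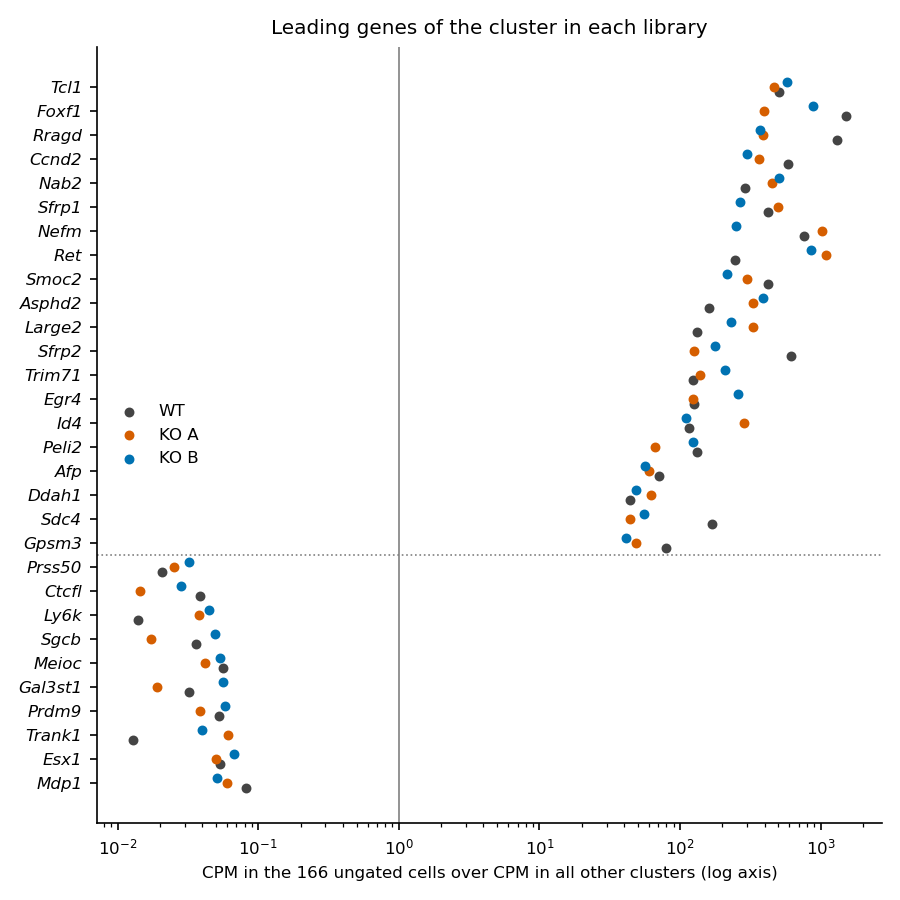
Points give the CPM of the 166 ungated cells over the CPM of all other clusters in the same library, on a log axis, for the 20 leading genes and, below the dotted line, the 10 lowest. The lowest point of the 20 genes is Gpsm3 at 41.3-fold and the highest of the 10 is Mdp1 at 0.0813-fold.

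Among genes at 50 CPM or more in the rest of every library, those furthest below it included several of differentiation and meiotic entry. Prss50, a serine protease of differentiating and meiotic germ cells, was at 19.6, 26.8 and 29.5 CPM, against 940, 1068 and 914 CPM elsewhere. Ctcfl, the germline paralogue of CTCF, was at 2.44, 0.812 and 1.70 CPM, and Prdm9, the methyltransferase that places meiotic breaks, at 6.11, 3.25 and 3.98 CPM. Meioc, the partner of YTHDC2, stood at 0.0562, 0.0420 and 0.0538 of its level in the rest (566, 444 and 465 CPM). Ly6k, Sgcb, Gal3st1, Trank1, Esx1 and Mdp1 complete the 10.

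Without the 5 cells, 14 of the 18 measured stem cell-enriched genes were at least 2-fold higher than in the rest in all 3 libraries, and 10 of the 14 measured genes of GDNF and FGF signalling. Among all 14103 genes 2252 were so. Gfra1, Dusp6, Bcl6b and Lhx1 belong to both lists, and the GDNF and FGF list also holds the given markers Ret and Etv5. Foxc2, a forkhead factor of quiescent stem cells, was at 49.6, 61.1 and 62.9 CPM, and Uchl1, a ubiquitin hydrolase abundant in spermatogonia, at 1076, 1007 and 1071 CPM. Etv4, an ETS factor induced by FGF and GDNF, was at 28.0, 40.4 and 34.0 CPM. Of 11 progenitor genes, 6 were at least 2-fold higher, and 2, Rarg and Ccnd1, were lower than in the rest in all 3 libraries. Rarg, a retinoic acid receptor, was at 10.2, 21.5 and 17.9 CPM, against 21.5, 34.8 and 28.1 CPM in the differentiating cluster. Among the higher genes was Nanos3, a translational repressor, at 29.2, 27.2 and 32.9 CPM. Upp1, uridine phosphorylase, was at 42.0, 45.4 and 68.1 CPM, and Lin28a, the let-7 inhibitor, at 33.1, 49.5 and 45.6 CPM. Sox3, at 94.1, 121 and 134 CPM, was also seen in the differentiating cluster (49.5, 68.4 and 59.5 CPM) and in the first mixed cluster of the authors (72.03, 121 and 129 CPM). Neurog3, the classical progenitor factor, stayed at 2.54, 4.13 and 5.77 CPM.

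Later stages were lower but not at 0. Of the 20 leptotene-zygotene genes, 13 were at least 2-fold lower in all 3 libraries, against 1653 of 14103 genes. Their summed level was still 2389, 2442 and 2413 CPM, against 8107, 6168 and 5979 CPM elsewhere. Sycp3, of the synaptonemal complex, was at 158, 155 and 164 CPM, and Stra8, the retinoic acid-induced gatekeeper of meiosis, at 252, 307 and 244 CPM. Of the 9 genes of differentiating spermatogonia, 4 were at least 2-fold lower in all 3 libraries and 0 at least 2-fold higher, though 3 were higher than in the rest in all 3 (Sohlh1, Dmrt1 and Dnmt3b). Their sum was 1030, 989 and 916 CPM against 2534, 3306 and 3059 CPM. Immediate early genes were on the high side: 9 of 16 were at least 2-fold higher in every library, and the list summed to 1179, 1109 and 1232 CPM against 333, 532 and 533 CPM.

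Summed somatic markers were low in the 161 cells, and single genes carried the stromal and endothelial sums. Stromal and macrophage sums were nevertheless above those of the other clusters in all 3 libraries. Myoid and endothelial sums were below them, and the Sertoli cell sum was above in WT and KO A only. The 10 myoid genes summed to 31.8, 33.0 and 24.8 CPM, with 5 of them at 0 in each library. The 12 stromal genes summed to 80.1, 107 and 95.8 CPM, with 5, 7 and 5 at 0, against 17.2, 15.1 and 16.7 CPM in the other clusters. Dlk1, a Notch-like ligand, made up most of the cluster's stromal sum (58.7, 84.4 and 63.1 CPM in the 166 cells). The MHC class I list summed to 86.5, 119 and 132 CPM, but to 534, 211 and 159 CPM with the 5 cells. The 9 Sertoli cell genes summed to 26.7, 18.2 and 16.2 CPM and the 4 endothelial genes to 36.9, 40.4 and 36.3 CPM. The 2 macrophage genes summed to 8.90, 11.6 and 8.08 CPM, against 0.260, 0.539 and 0.512 CPM in the other clusters. Egfl7, a secreted protein of endothelial cells, was at 34.3, 39.6 and 34.6 CPM and made up most of the endothelial sum, at 0.79, 0.72 and 0.64 of its level in the other clusters.

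Markers were also counted cell by cell. To compare cells at equal depth, each was thinned to 5000 UMIs in 1 random draw, which left out none of the 161. A Gfra1 UMI was then seen in 9.38%, 30.9% and 39.2% of cells (exact intervals 1.98 to 25.02, 19.14 to 44.8 and 28.0 to 51.2). The WT share rests on 3 of 32 cells and on that 1 draw. Cells of 1 library are not replicates of a genotype, so these intervals do not compare KO with WT. Shares before thinning were 46.9%, 56.4% and 59.5%. No differentiating cell held a Gfra1 UMI after thinning (0 of 654, 528 and 814), and a count of 0, taken as 3 counts of the total, allows up to 0.459%, 0.568% and 0.369%. The level of Gfra1, 49.6 (35.3 to 67.8), 67.7 (53.8 to 84.0) and 64.6 (53.2 to 77.8) CPM, had overlapping intervals, and its KO change did not pass the test (limma log2 0.17, adjusted p = 0.77).

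Other markers were seen in a part of the cells too. After thinning, Zbtb16 was seen in 62.5%, 69.1% and 67.6% of cells and Ret in 34.4%, 49.1% and 39.2%, with overlapping intervals. In the differentiating cluster Ret was seen in at most 0.379% of cells, and Zbtb16 in 11.8%, 15.5% and 15.6%. Kit was seen in 21.9%, 10.9% and 10.8% of the cluster's cells and in 25.8%, 39.0% and 37.6% of differentiating cells. Stra8 was seen in 31.25%, 40.0% and 41.9% of the cluster's cells and in 56.3%, 67.2% and 74.2% of differentiating cells. After thinning, 3, 3 and 6 cells of the cluster held 0 UMIs over the 5 given markers. Of the 161 cells, 16 held both Gfra1 and Sox3, 33 Gfra1 only, 54 Sox3 only and 58 neither. Ret and Kit were seen together in 4 cells, Ret alone in 63 and Kit alone in 17. At this depth a missing UMI does not show that a gene was off, and detection in part of the cells does not show that the cells differed in level.

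Turning to genotype, Ythdc2 itself (chromosome 18, 44827730 to 44889720, GRCm38) was low in this cluster. Its level in the 161 cells was 42.0, 28.1 and 26.0 CPM, with exact Poisson 95% intervals of 28.9 to 58.9, 19.4 to 39.2 and 18.9 to 34.7. The difference was in the direction of the labels but did not pass the test (limma log2 -0.69 ± 0.29 SE, adjusted p = 0.196; with the 5 cells -0.59, adjusted p = 0.279). In the differentiating cluster the same transcript was at 170.0, 50.4 and 44.2 CPM. The labels do not state which exons the KO alters, so the transcript level is only a partial check of the labels.

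KO and WT were compared on mean normalised UMIs per cell, with log2(mean + 0.05) tested by limma across genes with a mean of at least 0.2 and called at a Benjamini-Hochberg adjusted p under 0.05. With 1 WT and 2 KO libraries a single gene leaves 1 residual degree of freedom, and limma assumes that the lone WT library varies as the KO libraries do. In the 166 cells, 49 of 7375 genes were called higher in KO (0.664%) and 160 lower (2.17%). With TMM scaling the split was 57 higher and 62 lower, and with RLE scaling 64 and 62. Leaving out 2 called doublets, both in KO B, gave 103 and 245, and with no filter on low means limma called 0 and 0, with 1665 genes at an unadjusted p under 0.05. Without the 5 cells it was 71 higher (0.976%) and 105 lower (1.44%) of 7272. edgeR's quasi-likelihood test on the recovered counts called 16 higher (0.217%) and 47 lower (0.637%), and 11 (0.151%) and 7 (0.0963%) without the 5 cells.

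Of the 49 higher genes, 47 were also called without the 5 cells, but of the 160 lower genes only 32 were. Another 78 were tested again and lost the call, and 50 no longer passed the filter on low values. DESeq2 called 0 higher and 2 lower among the 166 cells, with 96 genes at an unadjusted p under 0.05 against 1258 by limma.

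A set of 18 genes passed both limma and edgeR in the 161 cells, 11 higher and 7 lower in KO, and 16 of them passed both tests with the 5 cells too. Those named here are given because both tests called them, a rule that was chosen after their values had been seen. Among them is Ccnd2, given as a marker, which stood at 155 (129 to 185), 281 (252 to 313) and 269 (245 to 294) CPM. Both KO libraries were above WT, and their intervals did not overlap its interval (limma log2 0.55 ± 0.14 SE, adjusted p = 0.0172; edgeR adjusted p = 0.00169). On chromosome 6 it lies at 127125162 to 127152188. The gated cells, which were left out, held 36.3, 45.3 and 66.4 CPM.

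Ret rose as well by limma. From 66.1 CPM in WT (49.4 to 86.7) it went to 132 in KO A (112 to 154) and 111 in KO B (95.6 to 128), and neither KO interval reached that of WT. The limma change was log2 0.88 ± 0.17 SE (adjusted p = 0.000388), and edgeR gave an adjusted p of 0.0552 in the 161 cells and 0.0218 in the 166. As a mean per cell, Ret was 0.815 normalised UMIs in WT and 1.56 ± 0.267 (SD, n = 2) in KO. The share of cells with a Ret UMI had overlapping intervals, as given above.

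The other 3 given markers did not pass in either test. Zbtb16 changed by log2 0.28 (limma adjusted p = 0.357), Sall4 by 0.18 (adjusted p = 0.671) and Etv5 by -0.00 (adjusted p = 0.998) in the 161 cells. Of the 5 markers, 2 were thus called higher and 0 lower by limma, against 0.976% and 1.44% of all genes.

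Among genes of GDNF and FGF signalling, 2 of 11 tested were called higher and 0 lower by limma in the 161 cells, against 0.976% of all genes called higher. One is Ret, and the other is Dusp6, the ERK phosphatase induced by this pathway. Dusp6 was at 34.3, 79.2 and 66.9 CPM (log2 0.74 ± 0.21 SE, adjusted p = 0.0291). It did not pass with the 5 cells (adjusted p = 0.0606) or by edgeR (adjusted p = 0.0969). The median log2 change of the 11 was 0.16, against -0.03 over all genes tested. In the stem cell-enriched list, Dusp6 was the 1 of 13 tested genes called, and the median was -0.05.

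Other genes higher by both tests have roles outside the stem cell programme. Fasn, fatty acid synthase, was at 47.0, 106 and 89.4 CPM (limma log2 1.05 ± 0.19 SE, adjusted p = 6.17e-05; edgeR adjusted p = 0.0251). Rpgrip1, a protein of cilia, was at 55.9, 116 and 107 CPM. Tmem267, a transmembrane protein, was at 8.90, 54.5 and 32.9 CPM. In each of these genes both KO libraries were above WT.

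Of the genes of the mitochondrial genome, only mt-Nd3 and mt-Nd5, subunits of complex I, and mt-Atp8, of the ATP synthase, rose by both tests. How many genes of that genome were tested was not counted. The first was at 278, 463 and 457 CPM, the second at 247, 442 and 395 CPM and the third at 48.3, 106 and 106 CPM. The median mitochondrial share of the 161 cells was also above WT in both KO libraries, at 5.73%, 10.9% and 7.47%. It was lower in KO B than in KO A, whereas mt-Nd3 and mt-Atp8 were alike in both, and its part in the result was not tested. In the differentiating cluster that share was 5.68%, 9.79% and 7.03%, so the shift was not particular to this cluster. None (0) of the 20 nuclear respiratory chain genes was called by limma in the 161 cells, with 5 at an unadjusted p under 0.05 and 0 called by edgeR.

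Among the remaining higher genes were a noncoding RNA and 2 predicted genes. AY036118, a long noncoding RNA of chromosome 17, was at 11.4, 40.4 and 45.0 CPM, and at 50.0, 205 and 102 CPM in the differentiating cluster. Gm8797 was at 26.7, 159 and 69.8 CPM, and Gm10260 at 5.09, 4.95 and 134 CPM, so its change rests on KO B alone, as in the differentiating cluster (2.27, 1.77 and 131 CPM). Reads of such predicted genes can be shared with near-identical copies, and their levels are uncertain.

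Pmaip1, the BH3-only apoptosis gene also called Noxa and a target of p53, headed the genes that fell. It stood at 66.1 (49.4 to 86.7), 27.2 (18.8 to 38.3) and 13.3 (8.41 to 19.9) CPM, and the WT interval did not overlap either KO interval. The limma change was log2 -1.64 ± 0.28 SE (adjusted p = 1.94e-05; edgeR adjusted p = 8.98e-06). It was the 1 of 9 tested p53 response genes that was called, against 1.44% of all genes called lower by limma and 0.0963% by edgeR (median log2 -0.15, against -0.03 over all genes). In the differentiating cluster Pmaip1 was at 13.8, 1.93 and 1.25 CPM.

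Nptx2, neuronal pentraxin, was at 55.9, 19.0 and 24.8 CPM (limma log2 -1.31 ± 0.30 SE, adjusted p = 0.00416). Hmgn5, a nucleosome-binding protein, was at 122, 56.1 and 72.7 CPM, and Luzp4, a leucine zipper protein, at 43.2, 15.7 and 16.2 CPM. All 3 fell by both tests, with both KO libraries under WT. Hmgn5 was at 196, 174 and 119 CPM in the gated cells.

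The other 3 lower genes encode ribosomal proteins. Rpl21 was at 2919, 1714 and 2120 CPM, Mrps14, of the mitochondrial ribosome, at 451, 372 and 273 CPM, and the X-linked Rps4x at 303, 208 and 209 CPM. Ribosomal protein genes have many processed copies, so their counts are uncertain. Rps4x was at 3320, 2121 and 2694 CPM in the gated cells, and Rpl21 in the differentiating cluster at 2558, 1794 and 2272 CPM.

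**Figure D4:**
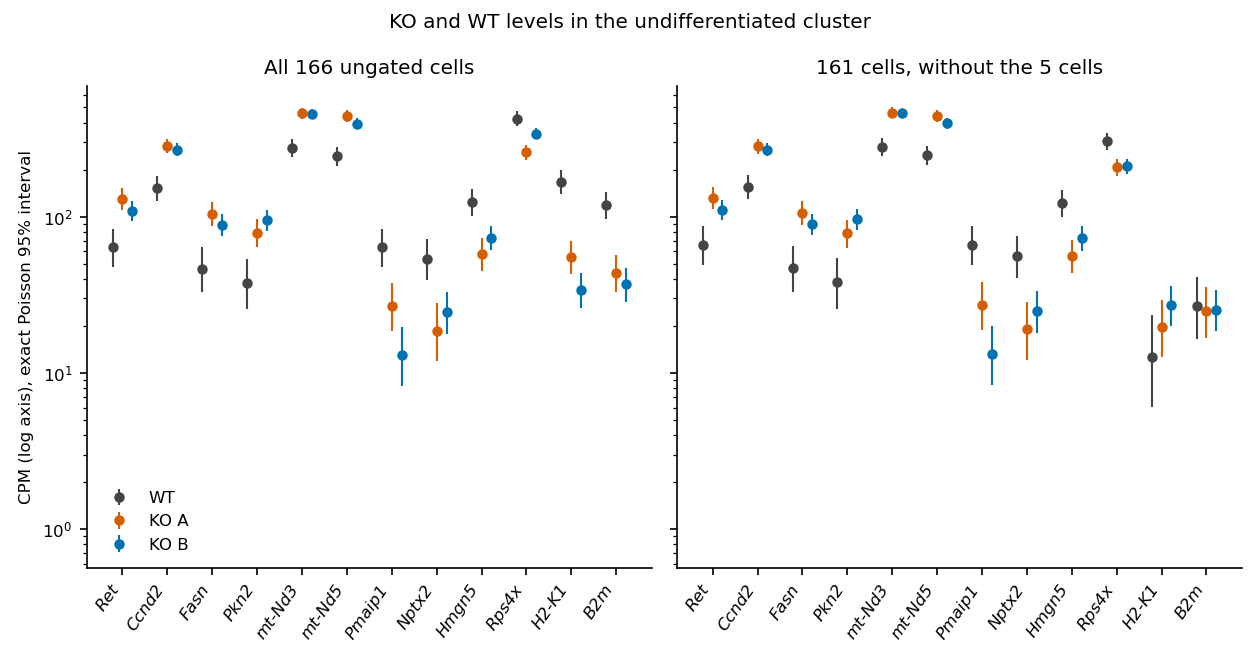
CPM per library with exact Poisson 95% intervals on a log axis, for the 166 ungated cells on the left and the 161 cells on the right. Ret, Ccnd2 and Pmaip1 look alike in both panels, whereas the WT level of H2-K1 drops from 167 to 12.7 CPM and that of B2m from 119 to 26.7 CPM once the 5 cells are left out.

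By the rule for named genes (smallest p, at least 2-fold, at least 20 CPM), the genes lowest in KO among the 166 cells were S100a10, H2-D1, B2m, H2-K1, Srgn, Coro1a, Shisa5, Ly6e, Clic1 and Myl6. Without the 5 cells, H2-D1, Srgn, Shisa5 and Ly6e no longer passed the filter, and B2m, H2-K1, Coro1a, Clic1 and Myl6 lost the call. H2-K1, a classical MHC class I chain, was at 167, 55.2 and 34.1 CPM among 166 cells, and at 12.7, 19.8 and 27.1 CPM among 161. Its limma change went from log2 -3.10 (adjusted p = 1.6e-08) to 0.03 (adjusted p = 0.984). For B2m, the light chain of MHC class I, the change went from -2.55 (adjusted p = 1.6e-08) to -0.33 (adjusted p = 0.683).

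S100a10, an annexin partner, kept a limma call. It was at 138, 28.4 and 16.5 CPM in the 166 cells and at 40.7, 19.8 and 15.0 CPM in the 161 (log2 -1.21 ± 0.32 SE, adjusted p = 0.0176; edgeR adjusted p = 0.0969). Its level in the gated cells was 1424, 1019 and 1617 CPM.

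The genes highest in KO by the same rule were AY036118, Fasn, Ints1, Dennd4c, Rnf145, Ccnt2, Pex16, Rb1, Znfx1 and Tmem267. Of these, edgeR called AY036118, Fasn, Ints1 and Tmem267 in the 166 cells. Rb1, the retinoblastoma protein that restrains S-phase entry, was at 28.0, 52.8 and 61.7 CPM in the 161 cells (limma log2 0.99 ± 0.25 SE, adjusted p = 0.0111), and edgeR did not call it (adjusted p = 0.18). Ccnt2, a cyclin of the elongation kinase P-TEFb, was at 12.7, 33.0 and 35.8 CPM (limma adjusted p = 0.00806; edgeR adjusted p = 0.15). Ints1, of the Integrator complex, was at 49.6, 106 and 86.5 CPM and passed edgeR only with the 5 cells (adjusted p = 0.034, against 0.0663 without).

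In the 166 cells limma called 4 of 20 M-phase genes lower, namely Ube2c, Mki67, Cdk1 and Birc5, against 2.17% of all genes, with a list median of log2 -0.22 against -0.02 over all genes. Without the 5 cells 0 of 20 were called by limma, with 2 at an unadjusted p under 0.05 and 0 called by edgeR, and the median was -0.06. Cdk1, the mitotic kinase, was at 139, 139 and 144 CPM in the 161 cells. Ube2c, the mitotic ubiquitin-conjugating enzyme, was at 336, 322 and 325 CPM.

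Calls in other lists were few. Of the MHC class I genes, 3 of 6 tested were called lower with the 5 cells, and 0 of 3 tested without them by limma and by edgeR, with 0 at an unadjusted p under 0.05. Rrm2, of nucleotide supply, Ier2, an immediate early gene, and Fcer1g, an Fc receptor chain on the macrophage list, were called lower only with the 5 cells. Leptotene-zygotene genes had 0 of 13 called in the 161 cells by either test, with 0 at an unadjusted p under 0.05 and a median log2 change of -0.09. For retinoic acid response the count was 0 of 8 by either test, with 4 at an unadjusted p under 0.05 and a median of -0.47. Kit, one of them, was at 58.5, 39.6 and 30.0 CPM (limma log2 -0.66, adjusted p = 0.183).

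Of the YTHDC2 complex, Meioc was the 1 of 4 genes called, lower by limma in the 161 cells, against 1.44% of all genes. It was at 31.8, 19.0 and 25.4 CPM (log2 -1.02 ± 0.31 SE, adjusted p = 0.0492), and did not pass with the 5 cells (adjusted p = 0.0699) or by edgeR (adjusted p = 0.682). Rbm46 was at 219, 204 and 172 CPM (adjusted p = 0.782) and Xrn1 at 63.6, 73.5 and 92.9 CPM (adjusted p = 0.607).

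Whether the KO difference itself was the same as in differentiating spermatogonia was tested on the log2 ratio of both clusters within each library. Among 6238 genes, 145 had a higher KO change in the undifferentiated cluster (2.32%) and 168 a lower one (2.69%). Without the 5 cells, 61 (0.984%) and 73 (1.18%) of 6197 genes remained past the threshold, of which 51 and 66 were among the first calls. A sign here says only that the changes differ, not in which cluster the gene moved.

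By the smallest p, the differences without the 5 cells were led by 2 subunits of cytochrome c oxidase. Cox8a (chromosome 19, 7215158 to 7217616) was at 917, 901 and 988 CPM in the 161 cells, and at 159, 616 and 653 CPM in the differentiating cluster. Cox7b (X chromosome, 106015700 to 106022450) was at 123, 118 and 151 CPM against 52.2, 210 and 213 CPM. In the differentiating cluster both KO libraries were above WT for both genes, whereas in the 161 cells KO A was below WT and KO B above it. The test of the difference gave log2 -1.91 ± 0.14 SE (limma adjusted p = 3.03e-12) for Cox8a and -1.96 ± 0.19 SE (adjusted p = 2.52e-09) for Cox7b.

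Stag3 and Tex12 differed in the other direction. Stag3, a meiotic cohesin subunit (chromosome 5, 138272514 to 138312397), was at 82.6, 77.6 and 76.1 CPM in the 161 cells and at 266, 140.0 and 124 CPM in the differentiating cluster (difference log2 0.99 ± 0.18 SE, limma adjusted p = 0.00236). Tex12, of the synaptonemal complex (chromosome 9, 50557148 to 50561268), was at 137, 121 and 129 CPM against 189, 73.6 and 91.8 CPM (log2 0.95 ± 0.19 SE, adjusted p = 0.00473). The levels of the undifferentiated cells lay close together in all 3 libraries, with overlapping intervals.

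Of the 13 tested leptotene-zygotene genes, 7 had a higher KO change in the undifferentiated cluster and 0 a lower one, and 5 and 0 without the 5 cells, against 2.32% and 0.984% of all genes with a higher change. Those 5 were Stag3, Tex12, Smc1b, Hormad1 and Sycp1, and edgeR's interaction test called them as well in the 166 cells. The list median was log2 0.42 without the 5 cells, against 0.00 over all genes. In the gated cells, which should lack these transcripts, Stag3 was at 29.1, 22.6 and 0 CPM and Tex12 at 36.3, 0 and 9.49 CPM. A higher KO change was not particular to the leptotene-zygotene list. The 8 tested general germ cell genes had a median difference of log2 0.34 with the 5 cells and 0.24 without them.

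Ythdc2 showed a difference of the same sign, log2 1.06 ± 0.27 SE (limma adjusted p = 0.0297). The KO levels lay further below WT in the differentiating cluster, as given above. Slc25a31, the germ cell ADP/ATP carrier, was at 501, 607 and 592 CPM against 526, 366 and 337 CPM (log2 0.92 ± 0.14 SE, adjusted p = 0.000152). Kit moved apart the other way: at 58.5, 39.6 and 30.0 CPM in the 161 cells and 58.9, 102 and 90.3 CPM in the differentiating cluster (log2 -1.20 ± 0.25 SE, adjusted p = 0.00751). For Klf2, an immediate early zinc finger factor, the levels were 19.07, 19.8 and 27.7 CPM against 7.94, 37.7 and 33.6 CPM (log2 -1.43 ± 0.33 SE, adjusted p = 0.0166).

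For the other genes named by the rule, levels are given in the 161 cells and then in the differentiating cluster. Ly6k, a GPI-anchored protein of germ cells, was at 8.90, 26.4 and 25.4 CPM against 313, 230 and 228 CPM (log2 1.57 ± 0.24 SE, limma adjusted p = 0.000152 without the 5 cells). Sec23b, of the COPII coat, was at 30.5, 62.7 and 53.7 CPM against 91.7, 87.2 and 78.9 CPM, and Fam118b at 57.2, 106 and 93.5 CPM against 66.4, 64.0 and 59.6 CPM. Rps4x, a protein of the small ribosomal subunit, was at 303, 208 and 209 CPM against 28.0, 47.5 and 52.3 CPM (log2 -1.35 ± 0.21 SE, limma adjusted p = 0.000152). For H2-K1 the difference went from log2 -2.76 to 0.37 (limma adjusted p = 0.523), for Sh3bgrl3 from -1.32 to -0.03 (adjusted p = 0.962), and for Ptms from -1.67 to -0.70 (adjusted p = 0.0384) once the 5 cells were left out.

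**Figure D5:**
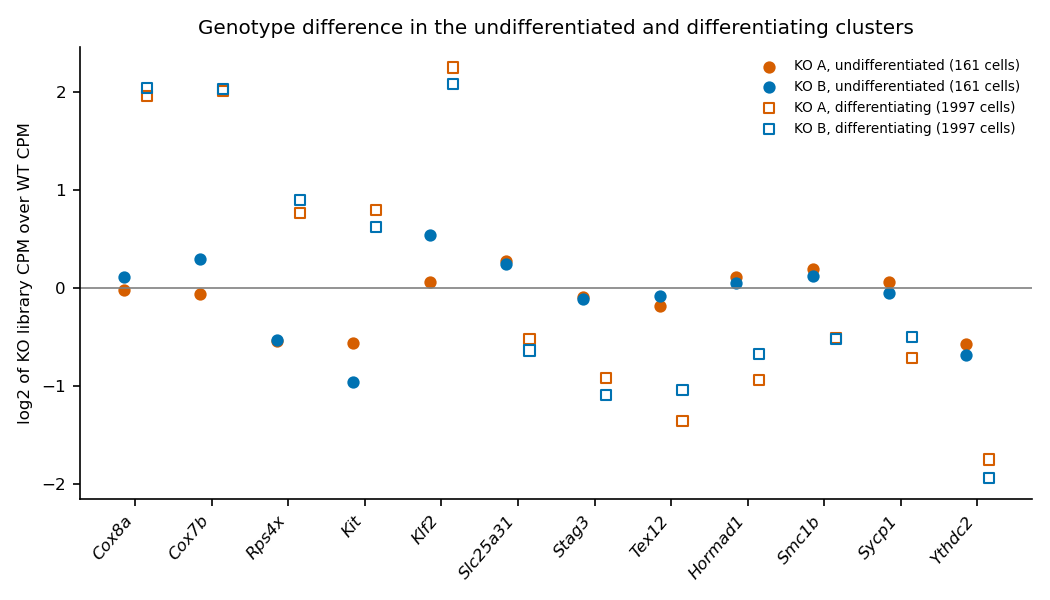
Each point is log2 of a KO library's CPM over the WT CPM, filled circles for the 161 undifferentiated cells and open squares for the 1997 differentiating cells. For Cox8a and Cox7b the squares lie far above 0 and the circles near 0, and for Stag3 and Tex12 the squares lie under the circles.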

How the data were processed

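Values in the deposited expression matrix (14103 genes, 4528 cells) are on a natural log scale; read as ln(UMI count / size factor + 1), with the authors' size factor of each cell, they could be turned back into counts. Per the submitters' processing notes, Cell Ranger 3.0.2, Scanpy and mm10/GRCm38 were used. The deposited cell table gives the authors' cluster, library, UMI and gene count, size factor (a score) and mitochondrial fraction. Undoing the log gave whole numbers for 100% of values within 0.01 and 99.9% of the deposited UMIs. Whole-series cells: WT 1151, KO A 1522, KO B 1855.

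Means of count/size factor per library, on log2(mean + 0.05), were tested with limma 3.58.1 (R 4.3.3; trend, empirical Bayes; mean at least 0.2), since the files hold log values. edgeR 4.0.16 (TMM) and DESeq2 1.42.0 on recovered counts were alternatives. In the comparison of KO with WT, limma's prior degrees of freedom were 20.4 in the 166 cells and infinite in the 161, and 1 library against 2 cannot give an exact p under 0.333. The added 0.05 shrinks the log2 changes of low genes. limma's values are means per cell whereas CPM are pooled counts, so a log2 change can be larger or smaller than the CPM show. Scrublet (scanpy 1.11.5), run on each library, marked doublets, which were kept (2 in the cluster, both in KO B). The scripts were tested on simulated data.

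The rule named, for KO against WT, the 10 smallest p per direction among called genes with log2 of at least 1, 20 CPM and a like sign in both KO libraries, leaving out predicted genes; 6 per direction for the difference between clusters; 20 and 10 genes for the cluster against the rest (50 CPM); 12 for gated cells; called list genes; and fixed genes. The cells, lists and rules were chosen with earlier results of these data known, and the cut at 5 germ UMIs after seeing them. Symbols and positions come from the files and RefSeq's GRCm38 table. WT is 1 library, so genotype and library cannot be told apart, and the labels name no batch. Bulk RNA-seq and iCLIP samples of the series were not analysed here. Of the genes called by both tests, 1 is not reported here.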

Additional observations from a re-analysis of the deposited data

Results flagged for a closer look

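The KO change in the undifferentiated cluster differed from that in the differentiating cluster for 14 named genes by limma's test of the difference in the 166 cells (adjusted p under 0.05). On the log2 scale it was higher for Ly6k (1.69), Ythdc2 (1.16), Fam118b (1.14), Sec23b (1.14), Stag3 (1.09), Tex12 (1.05) and Slc25a31 (1.02). It was lower for H2-K1 (-2.76), Cox7b (-2.07), Cox8a (-1.96), Rps4x (-1.69), Ptms (-1.67), Sh3bgrl3 (-1.32) and Meioc (-0.61). Without the 5 cells with under 5 germ UMIs, H2-K1 went to 0.37 (adjusted p = 0.523), Sh3bgrl3 to -0.03 (adjusted p = 0.962), Ptms to -0.70 (adjusted p = 0.0384) and Meioc to -0.60 (adjusted p = 0.0879). The other 10 genes kept their direction and their call.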

How the results depend on the processing

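No paired analysis was possible because WT has 1 library and the KO libraries carry no replicate number that can be matched to a sample. Against 49 genes higher and 160 lower in KO, the counts were 0 and 2 by DESeq2, 16 and 47 by edgeR, 11 and 7 by edgeR without the 5 cells with under 5 germ UMIs, 94 and 320 with the gate not applied, 103 and 250 with the gate at 3 UMIs, 103 and 245 with doublets left out, 176 and 359 at a mean of at least 0.05, and 0 and 0 with no filter on low means (1665 genes at an unadjusted p under 0.05). The lower count was 62 with TMM, 62 with RLE and 105 without the 5 cells, and the higher count 27 with equal cells per library. The prior degrees of freedom of limma differed between these fits as well. They were 20.4 in the main fit, 42.4 with the gate not applied and 4.33 with no filter on low means. With doublets left out, with the gate at 3 UMIs and at a mean of at least 0.05 they were infinite. The cause of the changes in the counts was not tested. Over 81 named genes and the alternatives with a test, 954 values of KO against WT kept their side of the threshold, 161 lost the call, 57 gained it and 5 changed sign where called. Of the 954, 52 had turned their sign, all without a call, and 17 genes turned sign under at least 1 alternative. For the difference between clusters (22 genes), 144 kept their side, of which 4 had turned their sign, 7 lost the call and 1 changed sign where called. Leaving out KO A or KO B leaves no residual degrees of freedom and gives values only.

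For the difference between clusters (145 higher, 168 lower), edgeR gave 37 and 71, and leaving out the 5 cells 61 and 73. Among genes at 50 CPM or more in the cluster, those 4-fold above the rest rose from 107 to 162 with the gate not applied. Signs turned without the 5 cells for H2-K1 (log2 0.025 by limma, 0.86 by edgeR, and 0.37 for the difference between clusters) and, by edgeR, for Clic1 (0.016), Birc5 (0.042) and Rrm2 (0.11). The alternatives without these cells were chosen after seeing the data. Depth limits what could be seen: with 32 WT cells, a share of 0, taken as 3 counts, allows up to 9.38%.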
